A study of Ovis aries with 3 samples.

Results

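The genes described here were *S100A2* (ENSOARG00020000874), *S100A4* (ENSOARG00020000855), *S100A8* (ENSOARG00020000776) and *S100A12* (ENSOARG00020000765), which are 4 of 16 S100 genes found by symbol among 26478 genes. They were selected on measured values of these data, their rank by fold in clusters of these cells and the ratio of their levels between these libraries, so their levels per library and per cluster are a description and carry no test. Whole sheep embryos were dissociated and profiled as single cells by droplet sequencing in 3 libraries. E19 HSTS was 1 Hulunbuir short-tailed sheep embryo at embryonic day 19, of a breed whose genotyped animals in the study were homozygous for a missense allele of *T* (*Brachyury*). E19 HS was 1 Hu sheep embryo of the same day with wild-type *T*, and E16 HS was a Hu sheep library of day 16. The label of E16 HS names 1 embryo while the study describes 3 embryos for this group, and it could not be settled whether several were pooled. All embryos were digested with collagenases and passed through red blood cell lysis before capture. With 1 library per group, breed, *T* allele and single embryo cannot be told apart. In the same way, embryonic day, embryo and library cannot be told apart between E16 HS and E19 HS.

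S100 proteins are small calcium-binding proteins of the EF-hand family, which form dimers and act on partner proteins inside the cell or on receptors outside it. *S100A2* is known from the basal cells of stratified epithelia. *S100A4* is known from motile cells, macrophages and fibroblasts and binds the non-muscle myosin heavy chain *MYH9*. *S100A8* and *S100A12* encode calgranulins of neutrophils and monocytes, which signal through receptors such as *AGER* and *TLR4*. In the RefSeq sheep annotation *S100A6*, *S100A5*, *S100A4*, *S100A3* and *S100A2* follow one another on one chromosome.

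Cells were kept if they had 200 to 6000 genes, 1000 to 30000 unique molecular identifiers (UMIs) and no more than 10% of UMIs from mitochondrial genes, which left 9618 cells of E19 HSTS, 10629 cells of E19 HS and 11329 cells of E16 HS. Values given in threes without library names follow that order. The kept cells held 88733467 to 113213654 UMIs per library, with a median of 6900 to 9046 UMIs per cell. Pairs of libraries shared 31 to 37 cell barcodes. Levels are UMIs of a gene per 1000000 UMIs of the same cells (CPM) with exact Poisson intervals, shares of cells have Clopper-Pearson intervals, and ratios have exact conditional intervals. All intervals are at the 95% level and cover counting error only, not the spread between embryos, which 1 library per group does not measure. The intervals of levels and ratios also do not cover the clumping of UMIs in single cells. Both comparisons, E19 HSTS over E19 HS and E16 HS over E19 HS, share the E19 HS library. In such whole-embryo sums, fewer cells of a type and less RNA per cell cannot be told apart, so each gene is also given within groups of cells. These groups were either gates on marker genes or clusters made without S100 genes.

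*S100A2* was at 23.4 CPM in E19 HSTS (2329 UMIs, interval 22.4 to 24.4), 31.2 CPM in E19 HS (2771 UMIs, 30.1 to 32.4) and 102 CPM in E16 HS (11594 UMIs, 101 to 104). *S100A4* was at 7.75 CPM (7.22 to 8.32), 8.37 CPM (7.78 to 9.00) and 5.51 CPM (5.09 to 5.96) in the 3 libraries. *S100A8* had 260 UMIs in E19 HS, against 3 in E19 HSTS and 0 in E16 HS, which are 2.93 CPM, 0.0301 CPM and a level of at most 0.0326 CPM. *S100A12* had 11, 417 and 1 UMIs, or 0.110, 4.70 and 0.00883 CPM. *S100A2* had a UMI in 10.7%, 11.1% and 20.2% of kept cells and *S100A4* in 1.25%, 1.24% and 1.88%. *S100A2* was thus highest in E16 HS, and the calgranulin genes were nearly confined to E19 HS. *S100A4* lay within a narrow range, with overlapping intervals in the day 19 libraries.

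**Figure D1:**
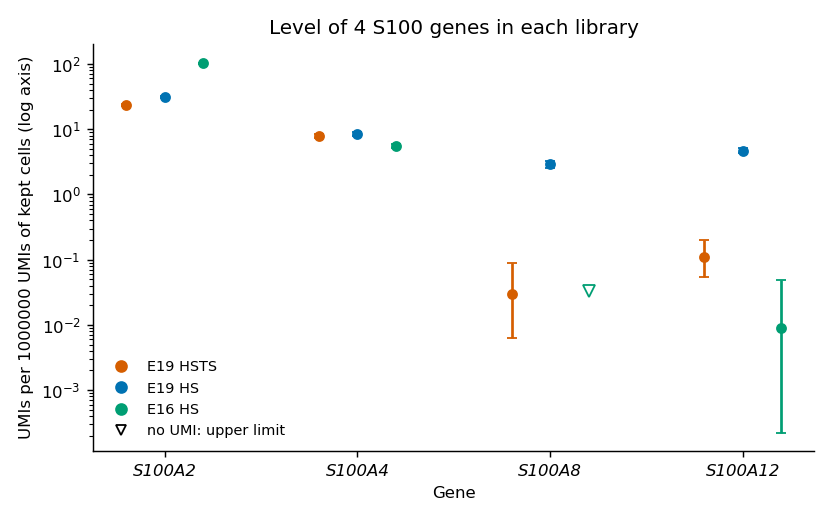
Level of the 4 genes in the kept cells of each library, in UMIs per 1000000 UMIs on a log axis, with exact Poisson intervals (bars) and the upper limit of a gene without UMIs (open triangle). *S100A8* and *S100A12* lie at 2.93 and 4.70 CPM in E19 HS and under 0.2 CPM in the other libraries, while *S100A2* is highest in E16 HS at 102 CPM.

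A 2-fold difference was the size used for calls, among genes with at least 50 UMIs in the higher library. Between the day 19 libraries, 0 of the 4 genes were at least 2-fold higher in E19 HSTS, against a background of 1.42% of 11437 genes, and 2 were at least 2-fold lower, *S100A8* and *S100A12*, against 1.98%. Of the 7 other S100 genes with enough UMIs, 0 were higher and 2 were lower, *S100A1* at a ratio of 0.338 (0.303 to 0.376) and *S100A5* at 0.453 (0.379 to 0.540). *S100A1* is best known from heart muscle. The median log2 ratio of these 7 genes was -0.69, beside -0.05 for all genes tested. Between E16 HS and E19 HS, 1 of the 4 genes was at least 2-fold higher in E16 HS, *S100A2*, against a background of 7.02% of 11745 genes. Lower were 2, again *S100A8* and *S100A12*, against 5.97%. Of 8 other S100 genes, 4 were higher (*S100A10*, *S100A5*, *S100A16* and *S100A14*) and 1 was lower (*S100G*), with a median log2 ratio of 1.36, beside 0.25 for all genes tested. The ratio of E19 HSTS over E19 HS was 0.749 (0.708 to 0.792) for *S100A2* and 0.926 (0.836 to 1.03) for *S100A4*, neither past 2-fold. Red cell precursors took 45.0% of the kept UMIs of E19 HSTS and 28.3% of those of E19 HS, and with them left out of sums and totals these ratios were 0.937 (0.876 to 1.00) and 1.20 (1.09 to 1.33). The ratios of the other S100 genes are given only with red cell precursors in the totals. In E19 HSTS and E19 HS these cells held 15 and 6 UMIs of *S100A1* and 0 and 2 of *S100A5*. How far the calls and the median of these genes depend on them was not tested. Since the 4 genes were chosen for such differences, nothing is read from their share of calls.

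*S100A2* in E16 HS was carried mainly by cells of a single cluster. This cluster was led by *UPK3A*, *WFDC2*, *KRT7* and *PPARG* and also had *UPK2* and *UPK1B* among its 10 leading genes. Uroplakins such as *UPK3A* are membrane proteins known from the bladder lining, and *KRT7* is a keratin of simple epithelia. The cluster held 326 cells of E16 HS, 6 of E19 HS and 2 of E19 HSTS, so it came almost wholly from 1 library. It was left unnamed because 1 listed marker, *KRT7* of the epithelial list, was among its leading genes and a name needed 2. Its cells were epithelial by single markers, since the epithelial gene *EPCAM* was found in 90.8% and *KRT7* in 94.5% of those of E16 HS. In it, *S100A2* was at 1675 CPM in E16 HS, with a UMI in 317 of 326 cells (97.2%, 94.8 to 98.7%), a median of 20.0 UMIs per cell and at most 133. The 8 cells of day 19 each had *S100A2* UMIs, at 1297 CPM in E19 HS and 1165 CPM in E19 HSTS. The level in these cells was higher in E16 HS than in E19 HS at a ratio of 1.29 (1.04 to 1.63), under 2-fold, while their number differed greatly. Its interval was 1639 to 1712 CPM in E16 HS, 1029 to 1614 CPM in E19 HS and 820 to 1606 CPM in E19 HSTS. The day 19 levels rest on 6 and 2 cells. Among kept cells their share was 2.88% (2.58 to 3.20%) in E16 HS and 0.0564% (0.0207 to 0.123%) in E19 HS.

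The *UPK3A* cluster held 69.6% of the *S100A2* UMIs of E16 HS, while it held 2.89% of those of E19 HS and 1.59% of those of E19 HSTS. Over all kept cells the ratio of E16 HS over E19 HS was 3.28 (3.15 to 3.42). Without the cluster, *S100A2* was at 32.5 CPM in E16 HS and 30.3 CPM in E19 HS, and the ratio was 1.07 (1.02 to 1.13). The 2-fold call of *S100A2* thus rested on these 326 cells. *S100A5*, which lies close to *S100A2* in the genome, went with it: it was found in 288 of the 326 cells, and its ratio of 4.74 (4.25 to 5.30) for E16 HS over E19 HS came from 20.3 CPM over all cells, of which 88.9% of UMIs lay in this cluster. Without the cluster, *S100A5* was at 2.35 CPM in E16 HS and 4.08 CPM in E19 HS.

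The upper limit of 30000 UMIs per cell also weighed on *S100A2*. In E16 HS, 312 barcodes lay above it and held 9655 *S100A2* UMIs, or 697 CPM, and 90 of these barcodes (28.8%) had UMIs of at least 2 of *UPK3A*, *UPK2* and *UPK1B*. Those 90 barcodes held 93.8% of the 9655 UMIs. In E19 HS, 125 barcodes lay above the limit with 212 *S100A2* UMIs, or 46.5 CPM, and in E19 HSTS 171 barcodes had 161 UMIs, or 24.8 CPM. None of the day 19 barcodes above the limit had 2 of these 3 uroplakin genes. Whether barcodes above the limit are single cells or doublets was not tested. Over all deposited barcodes the ratio of *S100A2* for E16 HS over E19 HS was 5.28 (5.08 to 5.48).

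*S100A2* was also high in cells with the surface ectoderm factor *TP63*. *TP63* encodes the transcription factor that marks the basal layer and its embryonic precursor, the surface ectoderm. Cells with a *TP63* UMI numbered 44, 31 and 36 in the 3 libraries, and 85.6% of them had *EPCAM*, the epithelial adhesion molecule. Their *S100A2* level was 412 CPM (358 to 472) in E19 HSTS, 313 CPM (256 to 380) in E19 HS and 251 CPM (208 to 299) in E16 HS, and 75.0%, 61.3% and 66.7% of the cells had a UMI. In this gate the ratio was 1.32 (1.03 to 1.68) for E19 HSTS over E19 HS and 0.800 (0.610 to 1.05) for E16 HS over E19 HS. In E16 HS, however, 6 of the 36 cells belonged to the *UPK3A* cluster, with 60 of the 124 *S100A2* UMIs at 623 CPM, and 1 cell of another cluster held 17 UMIs. The 29 *TP63* cells in the epithelial cluster described next were at 125 CPM (92.0 to 166) in E16 HS, against 344 CPM (280 to 418) for the 29 such cells of E19 HS. These intervals did not overlap, but they do not cover the spread between cells. The shares of these cells with a UMI were close, 58.6% (38.9 to 76.5%) in E16 HS and 62.1% (42.3 to 79.3%) in E19 HS. *KRT5*, a keratin of mature basal cells, was found in 5.41% of *TP63* cells, so few of them resembled the adult basal layer by that gene.

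Of the 111 *TP63* cells, 100 fell into a cluster named epithelial-like for *CLDN7*, *CDH1* and *EPCAM*, whose leading genes also included the ectodermal factors *TFAP2A* and *DLX5*. Over this whole cluster, *S100A2* was at 243 CPM in E19 HSTS (397 cells), 157 CPM in E19 HS (528 cells) and 68.5 CPM in E16 HS (579 cells). A UMI was found in 44.1% (39.1 to 49.1%), 37.1% (33.0 to 41.4%) and 29.0% (25.3 to 32.9%) of these cells, and the richest cells had 22, 19 and 10 UMIs. The ratio was 1.55 (1.41 to 1.71) for E19 HSTS over E19 HS and 0.437 (0.386 to 0.494) for E16 HS over E19 HS. *S100A2* in epithelial-like cells was therefore lowest in the library where the embryo as a whole had most of it. In this cluster 1.84% of 5722 genes were at least 2-fold lower in E16 HS than in E19 HS.

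Taken by the *EPCAM* gate without *TP63* instead, *S100A2* was at 316 CPM in E16 HS, 72.8 CPM in E19 HSTS and 60.8 CPM in E19 HS. This gate crossed clusters, and took in 16.7% of neural tube-like cells as well as most of the *UPK3A* cluster, so its order of libraries differed from that of the epithelial-like cluster. In E16 HS it also exceeded the *TP63* gate, at 251 CPM.

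Within the epithelial-like cluster, cells with *TP63* carried more *S100A2* than cells without it in each library. The levels were 417 against 221 CPM, 344 against 144 CPM and 125 against 64.6 CPM, and the intervals did not overlap in any of the 3. *S100A2* was not restricted to *TP63* cells, since 143 of 355, 178 of 499 and 151 of 550 cells without a *TP63* UMI had it. A low *TP63* level can be missed at these depths, with a median of 7183 to 10097 UMIs in the 6 groups of cells.

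A further source was a cluster led by *DCDC2*, *SLPI*, *CDH16* and *SLC12A1*, with the nephric factor *LHX1* among its leading genes, which was left unnamed because it had 1 nephric marker there. *S100A2* was at 37.1 CPM (200 UMIs) in E19 HSTS, 100 CPM (512 UMIs) in E19 HS and 117 CPM (728 UMIs) in E16 HS in this cluster. The ratio was 0.370 (0.313 to 0.436) for E19 HSTS over E19 HS, and 0.883% of 5887 genes of the cluster were at least 2-fold lower in this comparison. In endothelial-like cells *S100A2* was lower in E19 HSTS as well, at 24.2 CPM against 95.8 CPM in E19 HS, where 1.36% of 3529 genes were at least 2-fold lower, and it was at 18.8 CPM in E16 HS. The E19 HS value included 1 cell with 45 of 208 UMIs, and with the richest cell of each library left out the ratio of E19 HSTS over E19 HS was 0.288 (0.192 to 0.420), beside 0.252 (0.173 to 0.359) with all cells. The day 19 libraries thus differed in opposite directions in epithelial-like cells and in cells of the *DCDC2* cluster and endothelial-like cells.

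**Figure D2:**
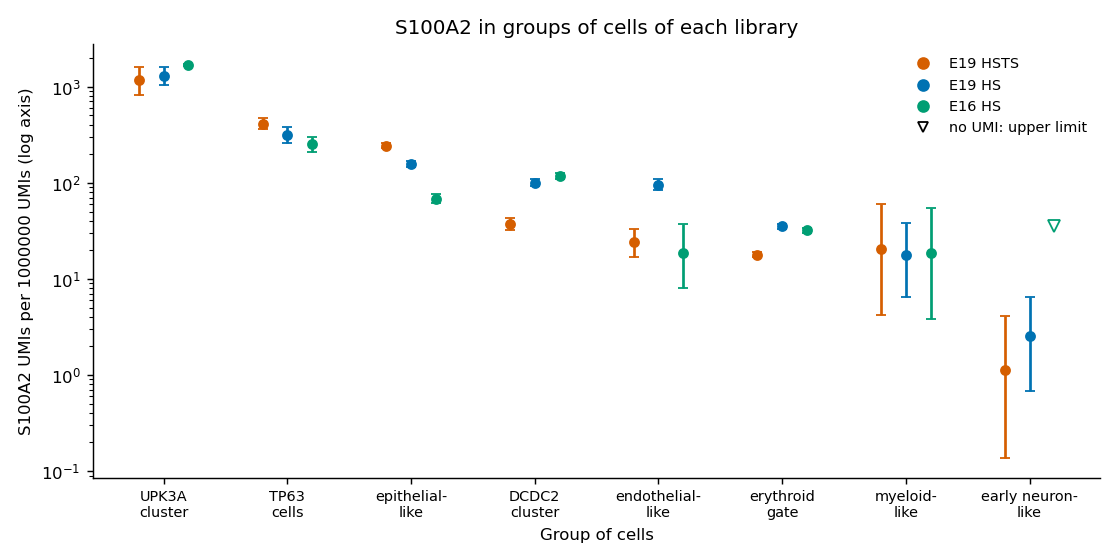
*S100A2* UMIs per 1000000 UMIs (log axis) in 8 groups of cells of each library, with exact Poisson intervals (bars) and the upper limit of a group without UMIs (open triangle). The *UPK3A* cluster stands highest in each library, at 1165 to 1675 CPM, and the order of the libraries differs between epithelial-like cells (243, 157 and 68.5 CPM) and the *DCDC2* cluster (37.1, 100 and 117 CPM).

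Red cell precursors held few *S100A2* UMIs per cell, but in many cells. The erythroid gate, with at least 3 of 7 red cell genes, took 2596, 1395 and 2077 cells. *S100A2* was at 17.9, 35.1 and 32.0 CPM there, with a UMI in 23.2%, 41.0% and 32.4% of cells and never more than 7 per cell. The ratio of E19 HSTS over E19 HS was 0.511 (0.464 to 0.563), where 2.38% of 6768 genes were at least 2-fold lower. These cells were deep, with a median of 13796 to 17552 UMIs. In early neuron-like cells, taken as a type that should lack the gene, *S100A2* was at 1.14 CPM (0.138 to 4.11) in E19 HSTS and 2.54 CPM (0.691 to 6.50) in the 276 cells of E19 HS, at median depths of 6281 and 5202 UMIs. E16 HS had 19 early neuron-like cells without an *S100A2* UMI, which allows up to 35.6 CPM, so these cells give no contrast for that library. Neural tube-like cells were at 3.19, 2.34 and 8.09 CPM. Other groups came near or above the erythroid levels in some libraries. Cardiomyocyte-like cells were at 22.3, 54.2 and 11.9 CPM and myeloid-like cells at 20.7, 17.6 and 18.5 CPM. A low level of *S100A2* was thus not particular to red cell precursors. Per 100 UMIs of *S100A13* there were 278, 495 and 101 UMIs of *S100A2* in the erythroid gate and 25.3, 21.0 and 54.7 in the whole libraries. Per 100 UMIs of *S100A10* there were 53.8, 83.3 and 12.1 in the gate and 16.5, 17.0 and 11.3 in the whole libraries, so against this gene the erythroid cells of E16 HS had nearly the ratio of their library. Thinned to 3000 UMIs per cell, with 39 and 8 shallower erythroid cells left out, 5.44% of erythroid cells of E19 HSTS and 10.8% of those of E19 HS kept a UMI, against 0.433% and 0.410% of early neuron-like cells. In E16 HS 8.64% of thinned erythroid cells had one, with 75 left out. The E16 HS cells of the gate mostly fell in a separate cluster led by *SRGN*, *MYL10* and *FERMT3* (1977 cells), and 47.3% of 7087 genes were at least 2-fold higher there than in the E19 HS cells of the gate.

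*S100A4* marked other cells, the endothelial-like and myeloid-like ones. Endothelial-like cells, a cluster led by *PECAM1*, *ESM1*, *CD93* and *CDH5*, numbered 168, 286 and 53. *S100A4* was at 374 CPM, 250 CPM and 144 CPM in them, with a UMI in 41.7% (34.1 to 49.5%), 29.4% (24.2 to 35.0%) and 30.2% (18.3 to 44.3%) of cells. In most endothelial-like cells no *S100A4* UMI was found. Cells with a UMI had a median of 3.00, 2.00 and 2.00, and the richest had 137, 79 and 20, so the counts were very unequal. At medians this low a cell that expresses the gene can be missed, and the share of expressing cells is not known from these counts. The ratio was 1.50 (1.33 to 1.69) for E19 HSTS over E19 HS and 0.574 (0.433 to 0.749) for E16 HS over E19 HS. With the richest cell of each library left out, these ratios were 1.34 (1.17 to 1.53) and 0.472 (0.334 to 0.650). With the *PECAM1* gate in place of the cluster, the levels were 348, 201 and 91.2 CPM.

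Endothelial-like cells held 74.2% and 73.1% of the *S100A4* UMIs of E19 HSTS and E19 HS and 9.78% of those of E16 HS. They made up 1.75%, 2.69% and 0.468% of kept cells. Over all cells *S100A4* was lower in E16 HS, with a ratio of 0.658 (0.591 to 0.733) to E19 HS. Without the endothelial-like cluster the direction turned: *S100A4* was at 4.99 CPM in E16 HS and 2.31 CPM in E19 HS, a ratio of 2.16 (1.84 to 2.55). Leaving out this cluster kept E19 HSTS close to E19 HS, at 2.03 against 2.31 CPM. With the myeloid-like cluster left out too, *S100A4* was at 0.786 CPM (77 UMIs) in E19 HSTS and 0.371 CPM (32 UMIs) in E19 HS. That is a ratio of 2.12 (1.39 to 3.31), and 39 of the 77 UMIs lay in 4 cells of an erythroid-like cluster. For E16 HS over E19 HS the ratio was then 7.15 (4.96 to 10.6).

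The same endothelial-like cells often carried *S100A5*, the genomic neighbour of *S100A4*. In E19 HSTS, 50 of 70 cells with *S100A4* had *S100A5* (71.4%), against 20.4% of 98 cells without *S100A4*. In E19 HS the shares were 69.0% of 84 and 21.3% of 202 cells, and in E16 HS 43.8% of 16 and 16.2% of 37 cells. The level of *S100A5* did not follow *S100A4* between the day 19 libraries, with a ratio of 0.714 (0.588 to 0.863) against 1.50. In the day 19 libraries *S100A2* was likewise more often found with *S100A4* than without it, in 44.0% against 11.9% of endothelial-like cells of E19 HS and 22.9% against 7.14% of those of E19 HSTS, while in E16 HS the shares were 12.5% of 16 cells and 8.11% of 37 cells. Deeper cells show more genes of any kind, and depth was not matched in these shares. *S100A6*, on the other side of *S100A5*, had 0, 0 and 1 UMIs in the 3 libraries, although it is abundant in many mammalian tissues.

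Myeloid-like cells, a cluster led by *TYROBP*, *CXCL10*, *CTSS*, *C1QB* and *AIF1*, were few, with 49 in E19 HS, 20 in E19 HSTS and 14 in E16 HS. *S100A4* was at 841 CPM in E19 HSTS, 493 CPM in E19 HS and 1630 CPM in E16 HS. It was found in 70.0% (45.7 to 88.1%), 49.0% (34.4 to 63.7%) and 92.9% (66.1 to 99.8%) of these cells, and cells of E16 HS had a median of 15.5 UMIs, against 1.50 in E19 HSTS and 0 in E19 HS. For E16 HS over E19 HS the ratio was 3.31 (2.72 to 4.04), where 3.68% of 788 genes were at least 2-fold higher, and 3.23 (2.59 to 4.05) without the richest cell of each library. *S100A4* in E16 HS was therefore higher in myeloid-like cells and lower in endothelial-like cells than in E19 HS. Among E16 HS cells, 37.7% of *S100A4* UMIs lay in 1559 mesenchyme-like cells led by *REG4*, *COL1A1* and *PMP22*, at 10.8 CPM. In the erythroid gate, whose cells should lack *S100A4*, it was at 0.0669, 0.0398 and 0.775 CPM. By cluster the picture differed in E19 HSTS, where 4 of 1278 cells of an erythroid-like cluster held 39 *S100A4* UMIs (1.53 CPM, 5.05% of the gene's UMIs in that library), against 1 UMI in 718 cells of E19 HS. The whole erythroid gate of E19 HSTS held 3 *S100A4* UMIs, so most of the 39 lay in cells of this cluster outside the gate. What these cells were was not tested. Early neuron-like cells had no *S100A4* UMI, which allows up to 2.10, 2.34 and 35.6 CPM.

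**Figure D3:**
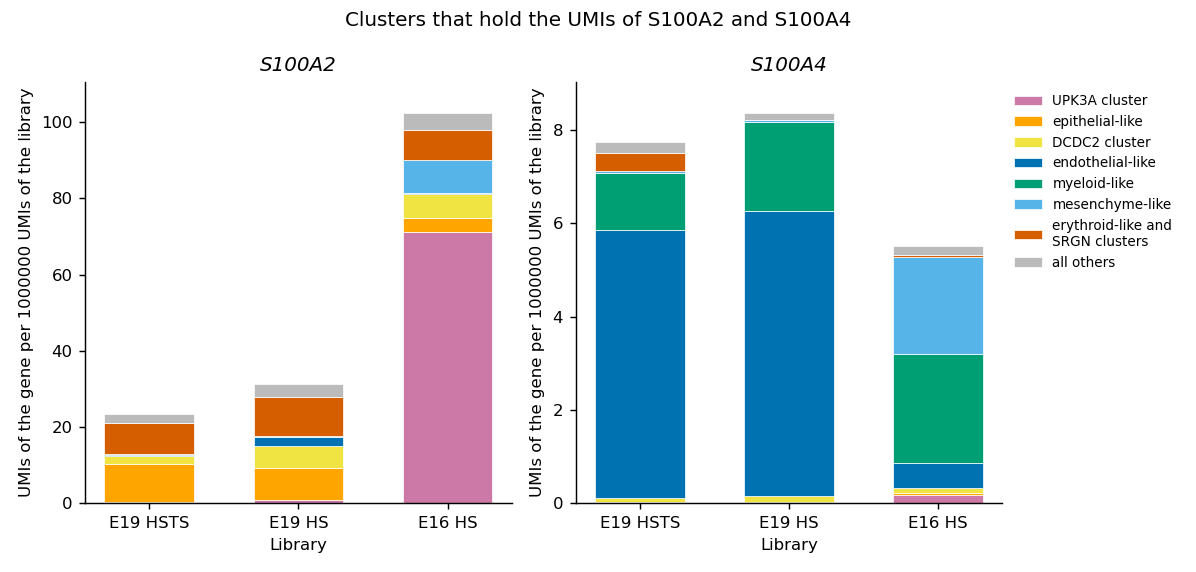
UMIs of *S100A2* (left) and *S100A4* (right) per 1000000 UMIs of each library, stacked by the cluster of the cells that held them. The *UPK3A* cluster makes up 69.6% of *S100A2* in E16 HS, and endothelial-like cells make up 74.2% and 73.1% of *S100A4* in E19 HSTS and E19 HS but 9.78% in E16 HS.

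*S100A8* and *S100A12* were found together in a handful of myeloid-like cells of E19 HS. Of its 260 *S100A8* UMIs, 255 lay in the myeloid-like cluster, and so did 413 of its 417 *S100A12* UMIs. They were carried by 10 of the 49 cells (20.4%, 10.2 to 34.3%), 6 with both genes, 2 with *S100A8* alone and 2 with *S100A12* alone. In E19 HSTS 2 of 20 myeloid-like cells carried them (10.0%, 1.23 to 31.7%), each with both genes, and in E16 HS 0 of 14, which allows up to 23.2%. The intervals of these shares overlap, so a difference in the share of carrying cells was not detectable with so few cells. Outside the myeloid-like cluster, 5 and 4 cells of 10580 in E19 HS had a UMI of *S100A8* or *S100A12*, and no such cell of any library had more than 1 UMI.

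The amount per carrying cell varied widely. In the 6 E19 HS cells with both genes, *S100A8* counted 5, 7, 11, 17, 23 and 183 UMIs, and *S100A12* in the same cells 37, 30, 38, 60, 21 and 175 UMIs. *S100A12* exceeded *S100A8* in 4 of the 6 cells. The other 4 carrying cells of E19 HS had 3 or 6 UMIs of *S100A8* alone, or 1 or 51 UMIs of *S100A12* alone. The 2 carrying cells of E19 HSTS had 1 *S100A8* UMI each, with 2 and 8 of *S100A12*. These 2 cells had 2008 and 4919 UMIs of all genes. Their *S100A8* counts lay below those of all 8 myeloid-like cells of E19 HS with that gene, which had at least 3 UMIs. Their *S100A12* counts lay within the range of the E19 HS cells with that gene, 1 to 175 UMIs. With 2 cells, a difference per carrying cell was not tested.

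A single cell weighed heavily on both genes. The E19 HS cell with 183 *S100A8* and 175 *S100A12* UMIs held 70.4% and 42.0% of the UMIs of these genes in its library, out of 3190 UMIs of all genes. It also had 6 UMIs of the granule gene *LTF*, 1 of *CSF3R*, 15 of *TYROBP* and 24 of *RETN*. It had none of the neutrophil genes *MPO* and *ELANE*, and none of *C1QB*, *CSF1R* or *S100A4*. Over all kept cells, *S100A8* had a ratio of 0.0103 (0.00211 to 0.0304) for E19 HSTS over E19 HS and *S100A12* one of 0.0235 (0.0116 to 0.0425). Without that cell the ratios were 0.0347 (0.00701 to 0.105) and 0.0405 (0.0200 to 0.0738). For E16 HS over E19 HS, *S100A8* had a ratio of 0.00904 with 3 UMIs over the library as the floor. The interval for its 0 UMIs reached 0.0112. *S100A12* had a ratio of 0.00188 (4.75e-05 to 0.0105) resting on 1 UMI. These ratios were not computed again without the E19 HS cell that held 183 of the 260 *S100A8* UMIs. Myeloid-like cells were also fewer in E16 HS and E19 HSTS than in E19 HS, at 0.124%, 0.208% and 0.461% of kept cells. Within the cluster, *S100A12* was still lower in E19 HSTS, at a ratio of 0.0569 (0.0271 to 0.106), and 7.27% of 784 genes were at least 2-fold lower there.

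**Figure D4:**
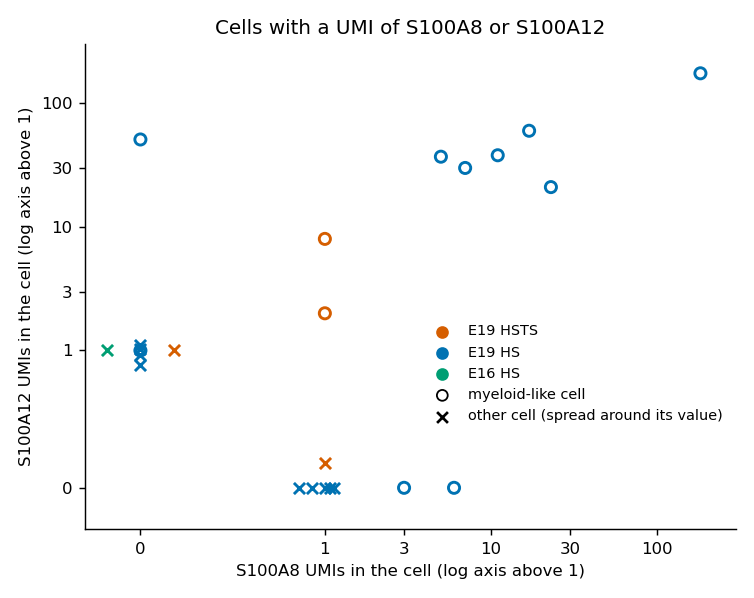
*S100A8* and *S100A12* UMIs in each of the 24 kept cells with a UMI of either gene (log axes above 1), as circles for myeloid-like cells and crosses for all others, which are spread a little around their value so that each shows. Cells with more than 1 UMI of either gene were all myeloid-like, and 6 cells of E19 HS had both genes, up to 183 and 175 UMIs.

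In E19 HS the carrying cells differed from the other myeloid-like cells in macrophage genes. *C1QB*, a complement gene of tissue macrophages, was found in 1 of 10 carrying cells and in 27 of the 39 other myeloid-like cells of E19 HS, at 62.8 against 827 CPM. *C1QA* was at 75.4 against 2044 CPM, and *C1QC* at 37.7 against 632 CPM. *TYROBP*, an adaptor of myeloid receptors, was found in all 10 carrying cells, at 1319 against 915 CPM, and *AIF1* was at 867 against 915 CPM. *CSF1R*, the receptor for a macrophage growth factor, was found in 2 of the 10 and in 10 of the 39 others, at 25.1 against 61.2 CPM. *CD68*, of the same marker list, was found in 1 of the 10 and in 6 of the 39, at 12.6 against 30.6 CPM. Both were lower in the carrying cells, on 2 UMIs and 1 UMI there. Of 8 neutrophil genes listed, 5 had a row. *LTF*, *MPO*, *ELANE* and *CSF3R* were found in 2 of the carrying cells, and *AZU1* was at 0. Of the 5 genes of the lymphocyte list with a row, *CD3E*, *CD3G*, *CD2* and *CD79A* were at 0. The fifth, *PTPRC*, which all leukocytes share, was found in 4 of the 10, at 87.9 CPM against 91.9 CPM in the other cells. Within E19 HS the carrying cells thus shared *TYROBP*, *AIF1* and *PTPRC* with the rest of the cluster and had less of the complement genes. Low complement genes were not particular to them, since the 14 myeloid-like cells of E16 HS, none of which carried *S100A8* or *S100A12*, were at 136 CPM for *C1QA*, 98.8 CPM for *C1QB* and 12.3 CPM for *C1QC*. Since cells were sorted here by the presence of *S100A8* or *S100A12* and since other cells could hold these genes below detection, these values are a description.

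*RETN*, which encodes resistin, was at 1055 CPM (842 to 1307) in the carrying cells of E19 HS and at 126 CPM (87.0 to 177) in the other myeloid-like cells of that library. It had 1, 2 and 1 UMIs outside the cluster in the 3 libraries and was singled out after its values were seen. *PECAM1*, shared by endothelium and some leukocytes, had a UMI in 5 of the 10 carrying cells. With the gate of at least 2 of *C1QB*, *CSF1R* and *TYROBP*, 3 of the 10 carrying cells were called myeloid and 4 endothelial, so the gate placed 10.8% of *S100A8* UMIs and 26.1% of *S100A12* UMIs of E19 HS in myeloid cells. The cluster placed 98.1% and 99.0% there. The class to which these genes are assigned therefore depended on how the cells were classed.

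Among the partners and receptors of S100 proteins, 16 of 19 looked for had a row, and 11 had enough UMIs in each comparison. For E19 HSTS over E19 HS, 0 were at least 2-fold higher and 1 was lower, *CD36*, a scavenger receptor that binds the calgranulins, at 0.469 (0.325 to 0.671), beside 1.42% and 1.98% of all genes tested. The median log2 ratio was -0.12, beside -0.05 for all genes. For E16 HS over E19 HS, 3 were higher, *ANXA1* at 9.02 (8.22 to 9.91), *ANXA2* at 4.12 (3.91 to 4.34) and *MYH9* at 3.10 (2.97 to 3.24), and *CD36* and *ERBB4* were lower, beside 7.02% and 5.97% of all genes tested. The median log2 ratio was 0.40, beside 0.25 for all genes. *ANXA2* is the annexin that binds *S100A10*, whose own ratio was 4.96 (4.88 to 5.04). Of the *S100A10* UMIs of E16 HS, 73.3% lay in mesenchyme-like cells. The receptors for extracellular calgranulins were scarce, *AGER* with 17, 12 and 22 UMIs and *TLR4* with 7, 9 and 2 UMIs.

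The genes whose pattern was closest to each of the 4 were sought over 46 sums of cluster by library with at least 30 cells, as the Pearson correlation of log2(CPM + 1) among 9061 genes. For *S100A2* these were *SH3YL1* (0.71), *KRT7* (0.67), *RAB25* (0.66), *MAL2* (0.64) and *MAPK13* (0.63). For *S100A4* they were *STAB1* (0.92), *PLAU* (0.87), *RALB* (0.85), *CLEC3B* (0.84) and *PECAM1* (0.83). *S100A8* and *S100A12* were closest to each other (0.99), to *CXCL10* (0.99 and 1.00), *C1QC*, *TYROBP* and *C1QB*. The last set rests on a single point, the myeloid-like cells of E19 HS, since the other libraries had fewer than 30 such cells, and per cell *C1QB* and *C1QC* were low where *S100A8* and *S100A12* were high. The sums share libraries and depth, so these values are a description.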

How the data were processed

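Single cells of whole sheep embryos were sequenced from 3 libraries with the 10x Genomics 3′ kit. The authors used Cell Ranger 6.1.2 for alignment to the sheep genome and for UMI counting, and the deposited values are these raw counts, which were checked to be whole numbers. No imputation or batch correction was applied to them, and levels were sums of these counts scaled to CPM. Before clustering, the counts were log-normalized with a scale factor of 10000 and scaled with regression on the mitochondrial share. Reads, aligner settings and strand were not analysed here.

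Cells were filtered as stated in the report, and UMIs were summed per library, gate or cluster. The kept cells of E16 HS held 113213654 UMIs, against 99580051 for E19 HSTS and 88733467 for E19 HS. A gene without UMIs was set to 3 counts over the group for a bound. Gates were myeloid (at least 2 of *C1QB*, *CSF1R* and *TYROBP*), surface ectoderm (*TP63*), epithelial (*EPCAM* without *TP63*), endothelial (*PECAM1* without the myeloid gate) and erythroid (at least 3 of 7 genes), and cells of several lineages were called mixed. Clusters of all 3 libraries together were made in Seurat 5.3.0 (R 4.3.3) from 1989 variable genes, after 11 S100 genes had been left out, with 25 principal components, a resolution of 0.25 and seed 1. A cluster was named only as resembling a type, from marker lists. Doublets were scored with Scrublet in scanpy 1.11.5 and not removed in the main setting. Python 3.11.15, numpy 2.4.6, scipy 1.17.1, pandas 2.3.3 and edgeR 4.0.16 (TMM factors) were used. With 1 library per group no test was made, and genes were called by a 2-fold ratio with at least 50 UMIs in the higher library. The ratio intervals were tried on simulated Poisson counts, the model they assume, and the gates on made cells that met their definitions. UMIs clumped in single cells were not simulated, so this does not show how the intervals hold for such genes.

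The genes, gene lists and gates were chosen with earlier results of these data known. Named genes were the 4 genes, the other S100 genes, their partners and receptors, the markers of the classes, and for each of the 4 the 5 closest genes. Leading genes of clusters, *LTF*, *RETN* and the uroplakin genes were named after their values were seen. Alternatives were a stricter filter, all deposited barcodes, no cells of the 8% highest doublet scores, TMM scaling, no erythroid cells, stricter gates, clusters, thinning to 3000 UMIs, at least 2 UMIs per cell and at least 10 UMIs per gene. Further ones, leaving out a cluster or a cell, were chosen after seeing the data. Sheep positions come from RefSeq gene order, used for neighbours only.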

Additional observations from a re-analysis of the deposited data

Results flagged for a closer look

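The ratio of *S100A2* for E19 HSTS over E19 HS was 0.252 in endothelial-like cells and 1.55 in epithelial-like cells, which are opposite directions in the same pair of libraries. The ratio of *S100A4* for E16 HS over E19 HS was 0.574 in endothelial-like cells and 3.31 in myeloid-like cells. Each group had 1 library, so neither difference was tested. Barcodes above 30000 UMIs, which the filter removed, held *S100A2* at 697 CPM in E16 HS and at 46.5 CPM in E19 HS.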

How the results depend on the processing

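Of 238 values computed again under an alternative, 157 kept their direction and moved by less than their counting error or 1.5 times, 80 moved and 1 turned. Without the endothelial-like cluster, the ratio of *S100A4* for E16 HS over E19 HS was 2.16 in place of 0.658. That alternative, leaving out the *UPK3A* cluster (*S100A2*, E16 HS over E19 HS, 1.07 in place of 3.28) and leaving out the richest cell (*S100A8*, E19 HSTS over E19 HS, 0.0347 in place of 0.0103) were chosen after the data were seen. The same *S100A2* ratio was 2.91 with the stricter filter, 5.28 over all deposited barcodes, 4.24 without erythroid cells and 2.84 with TMM scaling, which put *S100A4* at 0.570. Without erythroid cells the ratios of E19 HSTS over E19 HS were 0.937 for *S100A2* and 1.20 for *S100A4*. What moved these ratios was not tested beyond the construction of each alternative. Genes at least 2-fold higher or lower in E19 HSTS numbered 440 and 595 with at least 10 UMIs in place of 162 and 227, and 118 were lower without erythroid cells. In E16 HS they numbered 1320 and 1293 with at least 10 UMIs in place of 825 and 701, and 524 were higher with TMM scaling.

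In the order E19 HSTS, E19 HS and E16 HS, cells with at least 2 UMIs made up 3.86%, 4.62% and 8.61% for *S100A2* and 0.676%, 0.677% and 0.671% for *S100A4*, and thinned cells 4.16%, 4.99% and 9.61%, and 0.775%, 0.829% and 0.919%. *S100A8* in E19 HSTS and *S100A12* in E16 HS came to 0% with at least 2 UMIs, and *S100A12* in E16 HS came to 0% when thinned. The share with *S100A2* was 10.1% of all deposited barcodes of E19 HSTS and 19.4% in E16 HS without the highest doublet scores.

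*S100A2* in gated epithelial cells was at 79.3 CPM (E19 HSTS) and 252 CPM (E16 HS) with the stricter filter, 65.3 and 476 CPM over all barcodes, and, in the 3 libraries, 82.9, 66.8 and 343 CPM without the highest doublet scores, 102, 85.7 and 452 CPM with stricter gates, 243, 157 and 68.5 CPM with clusters and 255, 151 and 74.3 CPM with clusters at resolution 1.0. In *TP63* cells it was at 521, 248 and 38.8 CPM with stricter gates (6, 3 and 2 cells), 304 CPM (E19 HSTS) and 602 CPM (E16 HS) over all barcodes and 195 CPM (E16 HS) with the stricter filter. The 28 erythroid-like cells of E16 HS by cluster had 81.0 CPM. *S100A4* in endothelial cells of E19 HSTS and E19 HS was at 379 and 229 CPM with the stricter filter, 451 and 253 CPM without the highest doublet scores, and 378 and 260 CPM with stricter gates, where E16 HS had 172 CPM. Clusters gave 250 CPM in E19 HS and 144 CPM in E16 HS, or 137 CPM at resolution 1.0. *S100A4* in myeloid cells of E19 HS was at 699 CPM with the stricter filter, 223 CPM with stricter gates and 493 CPM with clusters at both resolutions, and in E16 HS at 4339 CPM with stricter gates (2 cells). In myeloid cells of E19 HS, clusters at both resolutions gave 748 CPM for *S100A8* and 1212 CPM for *S100A12*, the stricter filter gave 615 CPM for *S100A12*, and stricter gates gave 0 for both genes, in E19 HSTS too. No paired analysis was possible because each group had 1 library. Cell number limits the myeloid-like groups, with 14 to 49 cells per library, the *UPK3A* cluster at day 19, with 2 and 6 cells, and the early neuron-like cells of E16 HS, with 19.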

Other observations

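Interferon-stimulated genes were high in the myeloid-like cells of both day 19 libraries, whether or not the cells carried *S100A8* or *S100A12*. A list of 9 such genes, written after their values were seen, summed to 8581 CPM in the 10 carrying cells of E19 HS, 10646 CPM in the other 39 myeloid-like cells of that library and 10132 CPM in the 18 other myeloid-like cells of E19 HSTS. In the 14 myeloid-like cells of E16 HS it summed to 395 CPM, and outside the cluster to 10.1 to 46.6 CPM per library.

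A gene without a symbol, ENSOARG00020000744, was at 12551 CPM in the carrying cells of E19 HS, found in 9 of 10 of them, and at 2.22 CPM in the other cells of that library. It had 1196 UMIs in E19 HS, 147 in E19 HSTS and 43 in E16 HS, and it was singled out after its values were seen. What it encodes is not given in the sources used here.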
